A study of Homo sapiens with 6 samples.

Results

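The genes described here are the 78 nuclear protein coding genes, of 58735 genes in the deposited table, whose names start with MRPL or MRPS and a number, the names given to proteins of the mitochondrial ribosome. By name, 49 belong to the large subunit and 29 to the small subunit. All 78 passed the filter on low counts, so every one was tested. Structures of the human mitochondrial ribosome place MRPS18A and MRPS30 in the large subunit, and MRPS36 is now known as a component of the 2-oxoglutarate dehydrogenase complex, which leaves 51 large and 26 small subunit genes by structure.

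The series profiled RNA from CCRF-SB, a line labelled as lymphoblast-like B-cell acute leukaemia cells from peripheral blood, after lentiviral silencing of ANXA1. There were 3 siControl libraries, with the genotype given as WT, from cells that received an empty lentiviral vector. A further 3 siANXA1 libraries, with the genotype given as ANXA1 down-regulated, came from cells that received the silencing vector and puromycin selection. All 6 were labelled as day 5 and grown in RPMI-1640 with serum. Nothing in the labels says whether the replicates were separate cultures, and p-values therefore reflect no more than the scatter of the 6 libraries, which may be technical. Silencing leaves part of the transcript in place, and the labels do not name clones or the silencing sequence.

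Mitochondrial ribosomes translate the few messages of the mitochondrial genome, all of which encode subunits of the respiratory chain and ATP synthase. Their proteins are encoded in the nucleus, translated by cytosolic ribosomes, imported, and assembled in the matrix on mitochondrially encoded RNAs, MT-RNR1 in the small subunit and MT-RNR2 in the large. Compared with the bacterial ribosome they have lost rRNA and gained proteins, so some subunits have bacterial counterparts and others are found in mitochondria alone.

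Counts assigned to a gene ranged from 21333951 in siANXA1 2 to 44148505 in siANXA1 1, and mitochondrial ribosomal protein genes took between 0.50% and 0.647% of them. ANXA1 followed the labels in every library, at 3696, 3696 and 3756 CPM (counts relative to library size, scaled by TMM) in siControl 1 to 3 and 1606, 1723 and 1712 CPM in siANXA1 1 to 3. The first principal component of log2 CPM over all 17947 tested genes held 39.9% of the variance and did not follow the labels. It set siControl 1, siControl 2 and siANXA1 2 on one side, called side A below, and siControl 3, siANXA1 1 and siANXA1 3 on the other, called side B. The labels name no batch that matches this division. DDIT4, a stress-induced inhibitor of mTORC1, marked it, with 2282, 2171 and 1435 CPM on side A and 189, 110 and 109 CPM on side B. The second component held 23.3% of the variance, and the groups did not overlap on it. Its scores were 41.9, 33.8 and 22.0 in siControl 1 to 3 and 0.01, -89.9 and -7.84 in siANXA1 1 to 3. There siANXA1 2 lay far from the other libraries of side A. The cell type label was not borne out by B lineage markers, since 11 of 12 averaged under 5 CPM, VPREB1 and IGLL1 were at 0 in every library, and CD24 alone stood above. All 12 erythroid markers averaged above 5 CPM, and their summed level was 2041 to 3481 CPM in siControl and 5786 to 7108 CPM in siANXA1. HBE1, an embryonic globin, made up much of that sum in siANXA1 but little of it in siControl. It measured 4.74, 637 and 9.82 CPM in siControl 1 to 3 and 3286, 2140 and 2973 CPM in siANXA1 1 to 3. Of the 12 markers, 4 (33.3%) were higher in siANXA1 without overlap, against 7.41% of all tested genes. The median deviation of the list overlapped between groups, at 0.34 in siControl 3 and 0.24 in siANXA1 2. The part of these markers in the values below was not tested. In such bulk libraries, fewer cells of a type and less RNA per cell cannot be told apart.

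Mitochondrial ribosomal protein genes were expressed at an intermediate level. Per length, in TPM (transcript abundance corrected for length) computed from the deposited lengths, their median was 96.9 TPM, against 205 TPM for 77 nuclear genes of the oxidative phosphorylation complexes and 1179 TPM for 84 tested genes of cytosolic ribosomal proteins. The median was 105 TPM for large and 93.1 TPM for small subunit genes. Within the large subunit MRPL16, a protein with a bacterial counterpart at the functional core, had the highest mean at 311 TPM, with libraries between 229 and 390 TPM. MRPL37, found in mitochondria alone, followed at 269 TPM with libraries between 224 and 328 TPM, and MRPL14, a bacterial-type protein of the subunit interface, at 243 TPM with libraries between 162 and 318 TPM. These ranges overlapped, although MRPL16 stood above MRPL14 within every library. The place of MRPL37 among the 3 changed between libraries. In the small subunit the highest means were MRPS18B at 219 TPM, MRPS15 at 204 TPM and MRPS24 at 190 TPM, again with overlapping ranges. Within every library MRPS18B stood above MRPS24.

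The lowest means were far below these. MRPL23, a protein of the polypeptide exit, averaged 8.75 TPM and MRPL53 averaged 15.0 TPM in the large subunit. MRPS16 averaged 7.05 TPM and MRPS11 averaged 20.5 TPM in the small subunit. The low values of MRPS16 and MRPL53 concerned RNA that is mostly not coding: only 4.9% and 14.4% of their counts were assigned to protein coding transcripts. Over all members the median share in protein coding transcripts was 96.7%, with 47 of 78 genes above 90% and 7 below 50%.

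The genes lie on 21 chromosomes. A head-to-head arrangement was frequent among them: 17 of 78 (21.8%) start within 1000 bases of an oppositely oriented protein coding gene, against 9.96% of 13006 tested protein coding genes. MRPL46 of the large subunit and MRPS11 of the small subunit face each other on chromosome 15 with 34 bases between their starts. MRPL46 measured 11.1, 13.5 and 26.6 CPM in siControl 1 to 3 and 22.5, 15.3 and 26.4 CPM in siANXA1 1 to 3. MRPS11 measured 16.9, 15.3 and 26.3 CPM in siControl 1 to 3 and 24.9, 18.0 and 26.5 CPM in siANXA1 1 to 3. Both were lowest in the 3 side A libraries and highest in the 3 side B libraries. Other pairs join the family to the respiratory chain, with MRPL36 starting 34 bases from NDUFS6 and MRPL47 starting 36 bases from NDUFB5, which encode subunits of complex I.

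Promoter sequences from RefSeq (GRCh38.p14, 250 bases before to 50 bases after the start) were matched by symbol for 69 of the 78 genes. MRPL2, MRPL10, MRPL13, MRPL15, MRPL21, MRPL23, MRPL35, MRPS28 and MRPS36 were not matched. Motifs were searched by exact letters on both strands, each counted apart from the others, so bases shared by overlapping matches count for each. The YY1 motif AAGATGGC was present in 20 of 69 promoters (29%), against 3.91% of 15842 protein coding promoters and 6.43% of 7964 promoters of genes tested at 5 CPM or more. The ETS-type motif CCGGAAG, the kind bound by GABPA, was present in 29 (42.0%), against 14.2% and 22.5%. By subunit, the shares were 28.6% of large and 29.6% of small subunit promoters for the YY1 motif and 40.5% and 44.4% for the ETS motif. The NRF1 motif (GCGC, any base, TGCGC) was in 11.6%, against 8.57% of all protein coding promoters and 13.5% of those at 5 CPM or more. TATAAA was in 2.90%, against 9.63% and 4.76%, CCAAT was in 29%, against 36.4% and 37.8%, and CACGTG was in 8.70%, against 8.88% and 11%. A match describes letters and does not show that a factor binds there.

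Most YY1 matches lay shortly after the start. Of 21 matches in the 20 promoters, 17 read forward with the gene and 15 lay after the start. The windows below show 8 of them, 5′ to 3′ on the strand of the gene, with the motif in capitals. They were chosen from both subunits for their similar positions, and the shared letters follow from the search.
MRPL20, chr1:1407262-1407287, minus strand: gacccgggcAAGATGGCagcggcgct
MRPL46, chr15:88467364-88467389, minus strand: ggagaacgaAAGATGGCggcgcccgt
MRPL50, chr9:101398579-101398604, minus strand: atctcatcgAAGATGGCggcgcgatc
MRPL51, chr12:6493225-6493250, minus strand: gtaaggcccAAGATGGCtgtcttcgc
MRPS18B, chr6:30617854-30617879, plus strand: gcgtacgtcAAGATGGCggcgtctgt
MRPS24, chr7:43869482-43869507, minus strand: gcttggcccAAGATGGCggcctccgt
MRPS30, chr5:44808951-44808976, plus strand: tcgcgggcaAAGATGGCggcggccag
MRPS7, chr17:75261889-75261914, plus strand: tggccagccAAGATGGCtgcccccgc
In these 8 genes the first base of the motif lay between 9 bases (MRPL46) and 24 bases (MRPL50 and MRPS18B) after the start. Over all 15 matches after the start it lay between 7 bases (MRPL38) and 36 bases (MRPL22). Of the others, 1 lay within 50 bases before the start and 5 lay farther before it. The motif contains ATG, the letters of a start codon, and whether matches after the start fall on one was not examined. The RNA of YY1 itself, a zinc finger transcription factor, measured 118, 120 and 200 CPM in siControl 1 to 3 and 181, 139 and 178 CPM in siANXA1 1 to 3, also lower on side A than on side B.

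Mitochondrial ribosomal protein genes varied together between libraries, with medians that divided by the side of the first principal component, while the groups overlapped. The median deviation of large subunit genes from their own mean log2 CPM was -0.23, -0.28 and 0.19 in siControl 1 to 3 and 0.23, -0.04 and 0.18 in siANXA1 1 to 3. For small subunit genes it was -0.13, -0.19 and 0.13 in siControl 1 to 3 and 0.18, -0.04 and 0.11 in siANXA1 1 to 3. Thus siControl 3 stood with siANXA1 1 and siANXA1 3, and siANXA1 2 stood between them and the remaining siControl libraries.

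**Figure D1:**
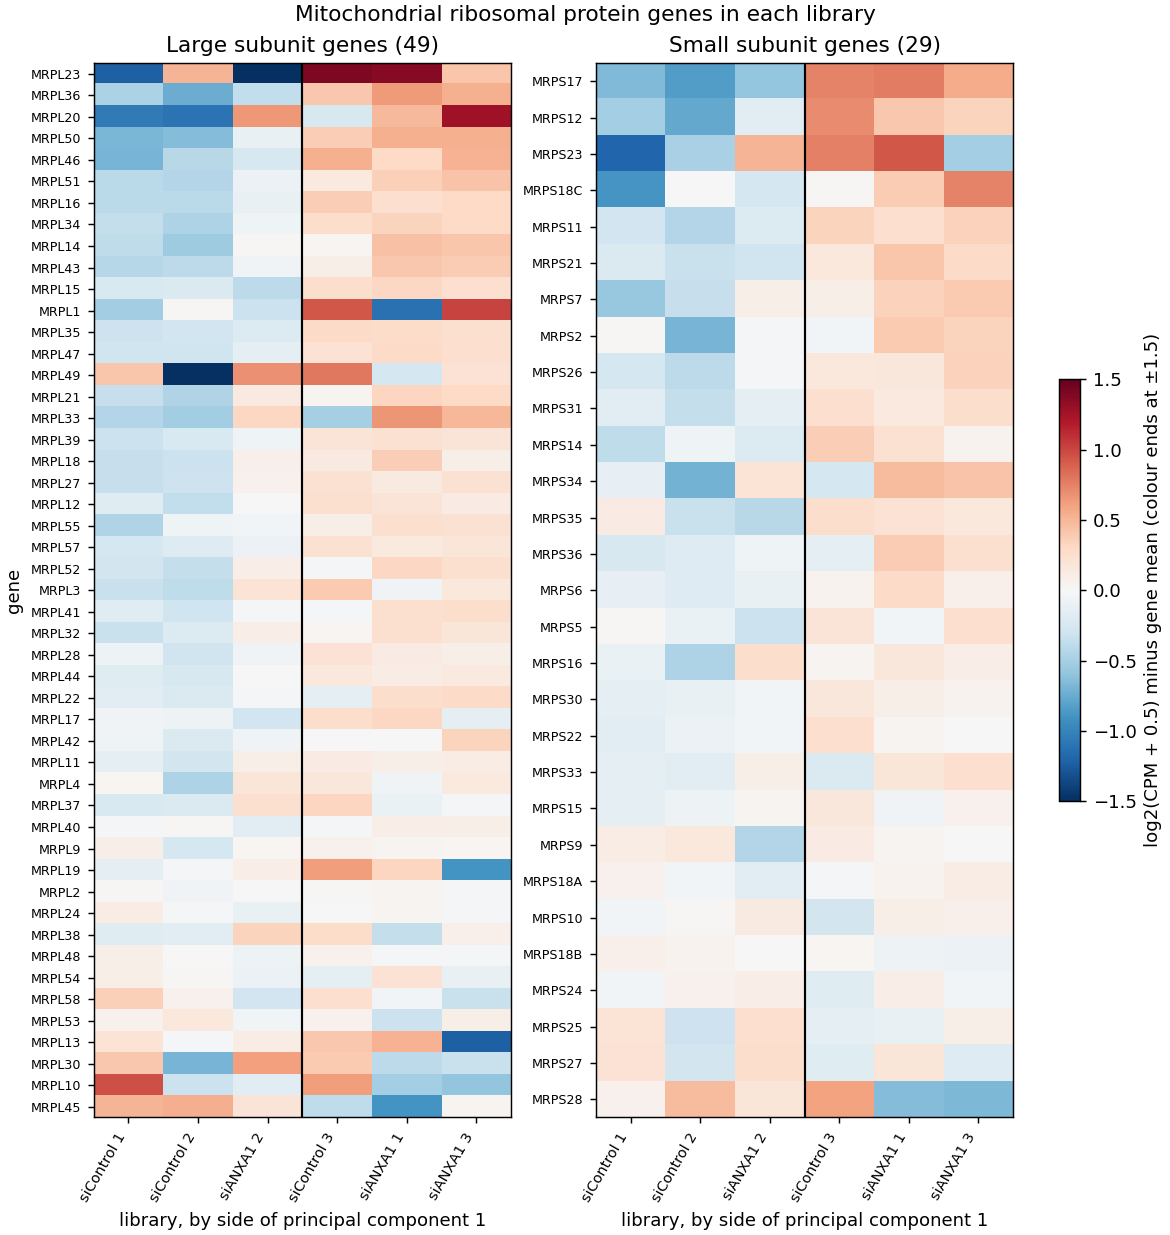
Levels of all 78 genes in each library, as log2(CPM + 0.5) minus the mean of the gene, with 49 large subunit genes at left and 29 small subunit genes at right, and the vertical line dividing side A (left) from side B (right). Most rows are blue in siControl 1 and siControl 2 and red in the 3 libraries of side B, while MRPL45 and MRPL10 at the bottom of the left panel show other patterns.

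Side B exceeded side A by a median of 0.33 on the log2 scale, with 64 of 78 genes higher. The median was -0.02 over all tested genes and 0.06 over those at 5 CPM or more, of which 54.4% were higher. For members, the difference was 0.37 between siControl libraries alone and 0.22 between siANXA1 libraries alone. In 34 of 78 genes (43.6%) every side B library stood above every side A library, which 20.1% of all tested genes and 26.4% of those at 5 CPM or more did as well. These were 21 of 49 large and 13 of 29 small subunit genes. The reverse held for 1 gene, against 19.7% of all tested genes. Since the component was computed from the same libraries and all tested genes, members included, these counts are a description. Of the 32 matched promoters of these 34 genes 28.1% held the YY1 motif, and of the other 37 promoters 29.7% did.

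Examples from both subunits show the step between the sides. MRPS12, the protein of the decoding centre, measured 43.1, 36.2 and 54.8 CPM on side A and 101, 81.9 and 78.3 CPM on side B. MRPL50, a mitochondria-specific protein of the large subunit, measured 30.9, 31.7 and 46.4 CPM on side A and 64.7, 72.5 and 72.4 CPM on side B. MRPS17, an rRNA-binding protein with a bacterial counterpart, was chosen after its values were seen and measured 27.8, 24.5 and 29.3 CPM on side A and 74.5, 75.8 and 65.3 CPM on side B. In all 3 genes siControl 3 lay above siControl 1, siControl 2 and siANXA1 2. MRPL45, which anchors the large subunit to the inner membrane near the exit of the nascent chain, was the gene that ran the other way, at 85.3, 87.5 and 68.3 CPM on side A and 46.0, 31.8 and 61.3 CPM on side B.

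**Figure D2:**
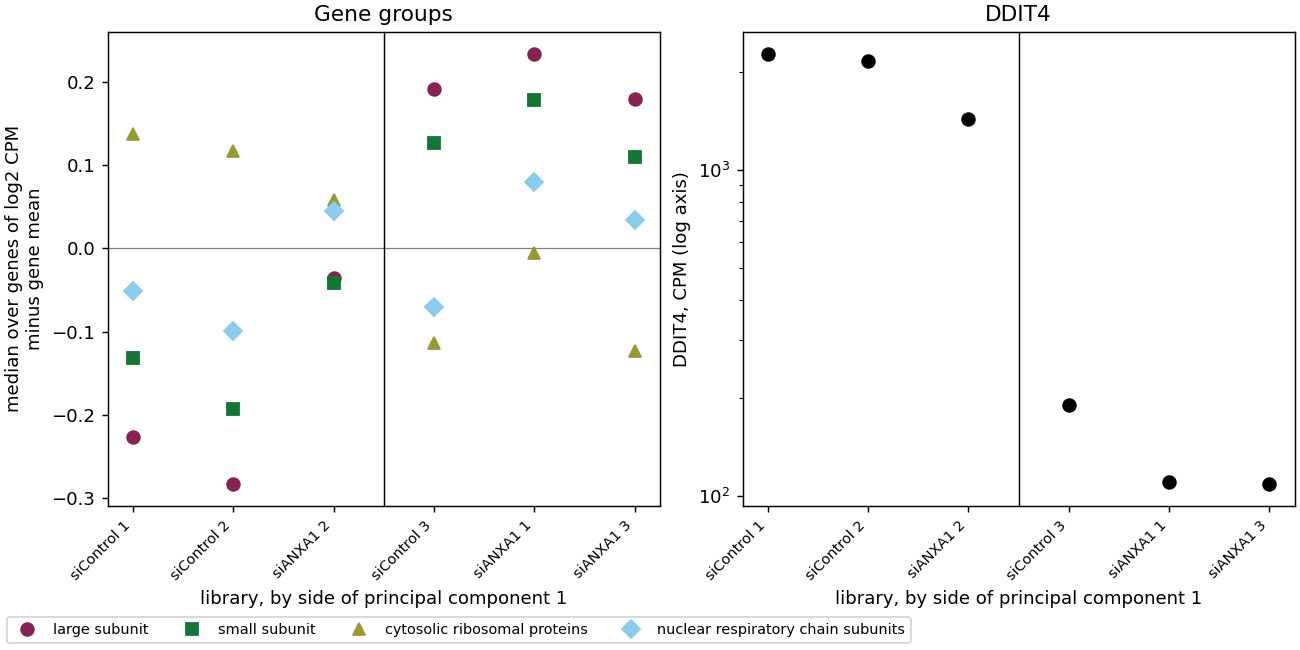
Left, median over genes of log2 CPM minus the gene's mean, per library and gene group; right, DDIT4 in CPM on a log axis, with libraries ordered by side and divided by the vertical line. Large and small subunit medians lie below 0 in the 3 libraries of side A and above 0 in the 3 of side B, while cytosolic ribosomal proteins lie above 0 on side A and at or below 0 on side B.

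Other ribosomal and respiratory genes were set beside them. Cytosolic ribosomal protein genes had median deviations of 0.14, 0.12 and -0.11 in siControl 1 to 3 and 0.00, 0.06 and -0.12 in siANXA1 1 to 3, higher on side A. Nuclear oxidative phosphorylation genes had -0.05, -0.10 and -0.07 in siControl 1 to 3 and 0.08, 0.05 and 0.03 in siANXA1 1 to 3, which divided by label instead. In that last group the siANXA1 libraries lay above all siControl libraries for 21 of 77 genes, against 7.41% of all tested genes, and below them for 2 of 77, against 7.24%. The difference between these profiles and that of the mitochondrial ribosome was not tested.

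The comparison the study was built for, siANXA1 against siControl, asked what silencing ANXA1 does to transcript levels. Since puromycin selection is described for the siANXA1 cells alone, its part and that of silencing cannot be told apart. Mitochondrial ribosomal protein genes were slightly higher in siANXA1 on average, by a median log2 fold change of 0.18 over 78 genes. Of these, 60 were above 0 and 18 below, against 50.5% above 0 over all 17947 genes tested, whose median was 0.01. None of the 78 passed edgeR's quasi-likelihood test at an adjusted p under 0.05, as did 0.0111% of all genes tested, and the smallest adjusted p was 0.478. At an unadjusted p under 0.05, 8 members were higher, against 3.4% of all genes, and 2 were lower, against 4.52%. DESeq2 called 2 members, MRPL33 and MRPL20, against 1.67% of the genes for which it gave an adjusted p. In a check on simulated counts with the spread of these libraries, edgeR recovered 1 of 67 genes changed 2-fold and 35 of 67 changed 4-fold, so a 2-fold change of a single gene was rarely detectable.

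**Figure D3:**
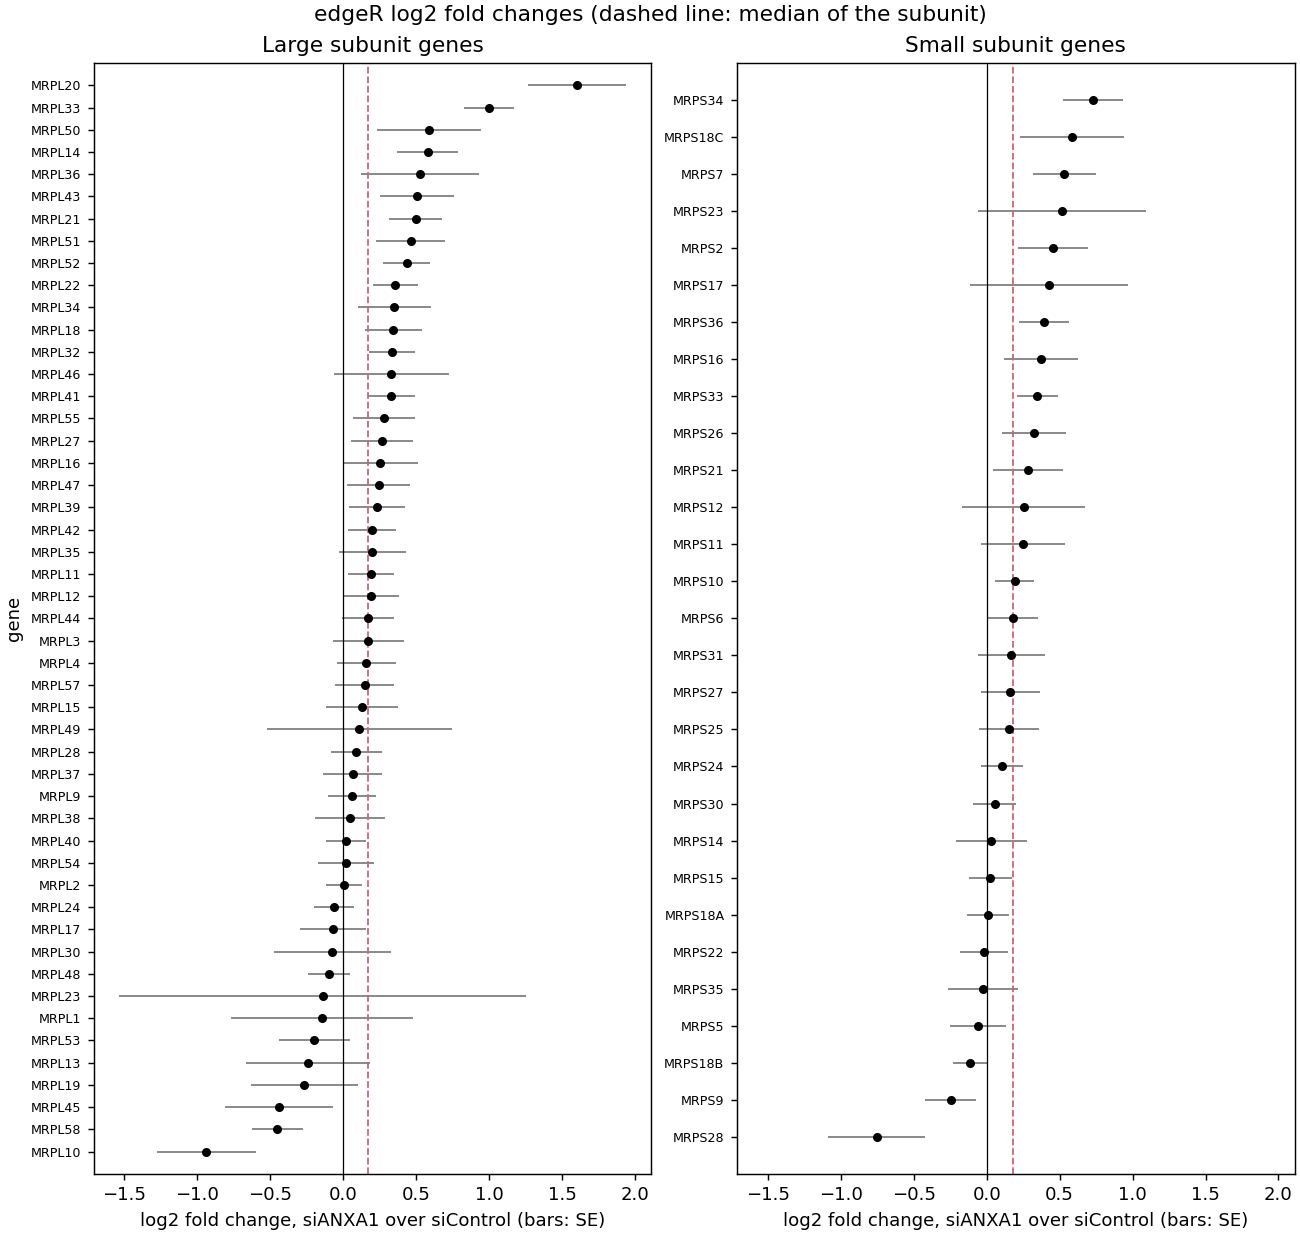
The edgeR log2 fold change of siANXA1 over siControl for each gene, with bars of 1 SE, a solid line at 0 and a dashed line at the median of the subunit. The dashed lines lie at 0.17 for 49 large and 0.18 for 29 small subunit genes, with MRPL20 and MRPL33 farthest to the right and MRPL10 farthest to the left.

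Groups did not overlap for 15 of the 78 genes. In 11 (14.1%), every siANXA1 library stood above every siControl library, against 7.41% of all genes. These were MRPL20, MRPL21, MRPL22, MRPL32, MRPL33, MRPL52, MRPS10, MRPS16, MRPS33, MRPS34 and MRPS36. In 4 (5.13%), MRPL48, MRPL58, MRPS9 and MRPS18B, every siANXA1 library stood below, against 7.24% of all genes.

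Within the sides, the small difference between the groups was present on side A and, over all 78 genes, not on side B. The siANXA1 2 library exceeded the mean of siControl 1 and siControl 2 by a median of 0.17, with 59 of 78 genes higher. Of all tested genes 50.03% were higher, and of those at 5 CPM or more 53.9%. On side B, siANXA1 1 and siANXA1 3 differed from siControl 3 by a median of -0.02, with 37 of 78 genes higher. Here 50.3% of all tested genes and 47.1% of those at 5 CPM or more were higher. By subunit, the side B median was -0.02 for large, with 22 of 49 genes higher, and 0.09 for small, with 15 of 29 higher. On side A these medians were 0.22 and 0.15. Each of these comparisons has 1 library in an arm, and their difference was not tested. With the side as a covariate in edgeR, the median was 0.10 for large and 0.08 for small subunit genes. Without siControl 3 the medians were 0.37 and 0.25, and without siControl 2 they were 0.08 and 0.09.

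The medians of the subunits lay close together. The median log2 fold change was 0.17 for the large subunit, with 37 of 49 genes above 0, and 0.18 for the small subunit, with 23 of 29 above 0. Within libraries, the mean log2 CPM of large subunit genes minus that of small subunit genes was -0.06, -0.09 and 0.02 in siControl 1 to 3 and -0.10, -0.10 and -0.04 in siANXA1 1 to 3. The ranges overlapped, and the difference between the groups, -0.04, was smaller than the pooled SD of 0.05 (n = 3 per group). Sorting by structure gave medians of 0.17 for 51 large and 0.19 for 26 small subunit genes. Large subunit proteins classed as of bacterial origin had a median of 0.19 over 30 genes, and those classed as mitochondrial additions 0.11 over 21 genes. In the small subunit these medians were 0.22 over 16 genes and 0.17 over 10 genes. MRPL58 was counted among the additions, as were MRPS18A and MRPS18B, although these paralogues descend from a bacterial protein.

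MRPL33 had the smallest p of the family and libraries that lay far apart between the groups. It encodes a small rRNA-binding protein of the large subunit with a bacterial counterpart, on the plus strand of chromosome 2 from 27771717 to 27988087 (GRCh38). Its level was 25.5, 24.0 and 24.4 CPM in siControl 1 to 3 and 55.2, 43.2 and 49.3 CPM in siANXA1 1 to 3, or 24.7 ± 0.751 CPM (SD, n = 3) against 49.2 ± 6.02 CPM (SD, n = 3). The siControl libraries lay close together whatever their side, and each siANXA1 library was well above them. The log2 fold change was 1.0 ± 0.17 (SE), with an adjusted p of 0.478 by edgeR and 1.09e-05 by DESeq2. By exact permutation p was 0.1, and 3 against 3 libraries cannot give a smaller value.

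The step in MRPL33 was carried by both of its main transcripts. ENST00000296102 measured 18.6, 16.1 and 15.2 CPM in siControl 1 to 3 and 32.9, 29.8 and 33.3 CPM in siANXA1 1 to 3. ENST00000379666 measured 6.37, 7.12 and 7.22 CPM in siControl 1 to 3 and 19.9, 10.9 and 14.2 CPM in siANXA1 1 to 3. Both are protein coding, and neither overlapped between groups. The gene's annotated span overlaps BABAM2 on the same strand, which measured 34.8 ± 1.35 CPM in siControl and 36.8 ± 2.45 CPM in siANXA1 (SD, n = 3), and RBKS on the opposite strand, at 1.08 ± 0.233 CPM and 0.540 ± 0.239 CPM (SD, n = 3). How reads were divided between overlapping genes is not given in the sources used here.

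MRPL20 had the largest fold change, of which 1 transcript carried a large part. Its protein binds rRNA and has a bacterial counterpart that acts early in large subunit assembly, and the gene lies on the minus strand of chromosome 1 from 1401908 to 1407313 (GRCh38). It measured 24.7, 23.8 and 43.6 CPM in siControl 1 to 3 and 72.5, 81.7 and 125 CPM in siANXA1 1 to 3. Every siANXA1 library was above every siControl library, with a log2 fold change of 1.6 ± 0.33 (SE) and an adjusted p of 0.574 by edgeR and 0.0051 by DESeq2. The coding transcript ENST00000344843 was assigned 51.8 CPM in siANXA1 2 and 77.9 CPM in siANXA1 3 and was listed at 0 in the other 4 libraries. Leaving that transcript out, an alternative chosen after seeing the data, gave a log2 fold change of 0.70, with an adjusted p of 0.663 by edgeR and 0.578 by DESeq2. Another coding transcript, ENST00000482352, measured 3.81, 3.57 and 3.92 CPM in siControl 1 to 3 and 22.4, 6.03 and 6.85 CPM in siANXA1 1 to 3, with no overlap between groups. Thus siANXA1 1, with none of ENST00000344843, still stood above every siControl library in the gene total. The retained intron form ENST00000487659 measured 8.59, 9.25 and 19.4 CPM in siControl 1 to 3 and 31.1, 11.9 and 23.1 CPM in siANXA1 1 to 3, with overlapping groups.

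**Figure D4:**
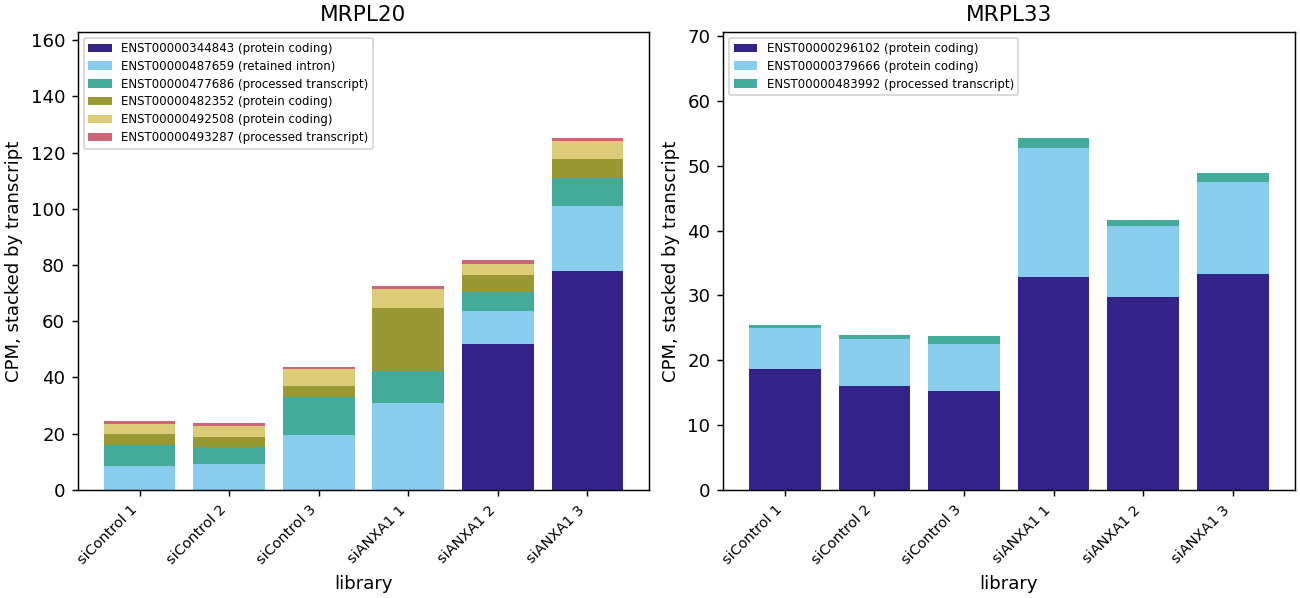
Deposited counts of MRPL20 (left) and MRPL33 (right) in CPM, stacked by transcript for each library. The dark segment of MRPL20 appears in siANXA1 2 and siANXA1 3 alone, whereas the dark and pale blue segments of MRPL33 are both taller in the 3 siANXA1 libraries.

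Bases upstream of the start are shown for genes chosen by their group values. Among those matched, MRPL33, MRPL20 and MRPS34 had the smallest p by edgeR and were higher in siANXA1. MRPL58 had the smallest p by edgeR of the matched genes that were lower. The sequences are from RefSeq (GRCh38.p14), 5′ to 3′ on the strand of the gene, and capitals mark the ETS motif CCGGAAG or its reverse complement.
MRPL33, chr2:27771569-27771718, plus strand: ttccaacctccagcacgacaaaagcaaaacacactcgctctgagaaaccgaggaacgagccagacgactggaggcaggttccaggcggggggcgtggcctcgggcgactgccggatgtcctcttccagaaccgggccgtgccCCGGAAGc
MRPL20, chr1:1407294-1407443, minus strand: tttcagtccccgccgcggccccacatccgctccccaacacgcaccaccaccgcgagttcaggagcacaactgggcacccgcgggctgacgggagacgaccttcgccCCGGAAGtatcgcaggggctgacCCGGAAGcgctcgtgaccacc
MRPS34, chr16:1773135-1773184, minus strand: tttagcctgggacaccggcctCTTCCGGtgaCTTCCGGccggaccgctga
MRPL58, chr17:75012520-75012669, plus strand: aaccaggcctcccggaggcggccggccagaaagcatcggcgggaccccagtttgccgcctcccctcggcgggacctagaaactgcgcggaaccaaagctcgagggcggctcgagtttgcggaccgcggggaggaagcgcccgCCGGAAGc
MRPL20 and MRPS34 each hold 2 matches, and MRPL33 and MRPL58 hold 1 at the last bases of their windows. All of these windows hold the motif, and its relation to the direction of the difference was not tested.

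Other large subunit genes with higher values in siANXA1 were moderate in size. MRPL21, with a bacterial counterpart, measured 62.6, 57.8 and 81.8 CPM in siControl 1 to 3 and 99.9, 87.5 and 97.8 CPM in siANXA1 1 to 3, a log2 fold change of 0.50. MRPL52, found in mitochondria alone, measured 54, 51.0 and 64.7 CPM in siControl 1 to 3 and 81.4, 70.3 and 77.7 CPM in siANXA1 1 to 3, a log2 fold change of 0.43. For both, the groups did not overlap, and siControl 3 was the highest of the siControl libraries. MRPL14 measured 97.7, 87.7 and 130 CPM in siControl 1 to 3 and 172, 129 and 170 CPM in siANXA1 1 to 3, a log2 fold change of 0.58. MRPL50, described above, had a log2 fold change of 0.59. In these last genes siControl 3 reached or passed siANXA1 2, so the groups overlapped. The adjusted p by edgeR was 0.627 for MRPL21, MRPL52 and MRPL14 and 0.684 for MRPL50.

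Small subunit genes reached smaller values. MRPS34, a mitochondria-specific protein needed for small subunit stability, lies on the minus strand of chromosome 16 from 1771890 to 1773155 (GRCh38). It measured 48.3, 32.0 and 44 CPM in siControl 1 to 3 and 73.7, 60.8 and 71.1 CPM in siANXA1 1 to 3, with a log2 fold change of 0.73 ± 0.21 (SE) and an adjusted p of 0.605 by edgeR. The groups did not overlap, although its coding transcripts were divided differently between libraries: ENST00000397375 measured 34.0, 11 and 10.03 CPM in siControl 1 to 3. MRPS33, also mitochondria-specific, measured 49.4, 48.0 and 46.7 CPM in siControl 1 to 3 and 61.3, 57.5 and 64.6 CPM in siANXA1 1 to 3. Its siControl libraries differed little between the sides, and its log2 fold change was 0.35 with an adjusted p of 0.627 by edgeR. MRPS7, which binds rRNA in the head of the small subunit, measured 46.5, 54.5 and 73.8 CPM in siControl 1 to 3 and 88.3, 73.6 and 90.9 CPM in siANXA1 1 to 3. Here siControl 3 was just above siANXA1 2, and the log2 fold change was 0.53 with an adjusted p of 0.627 by edgeR.

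**Figure D5:**
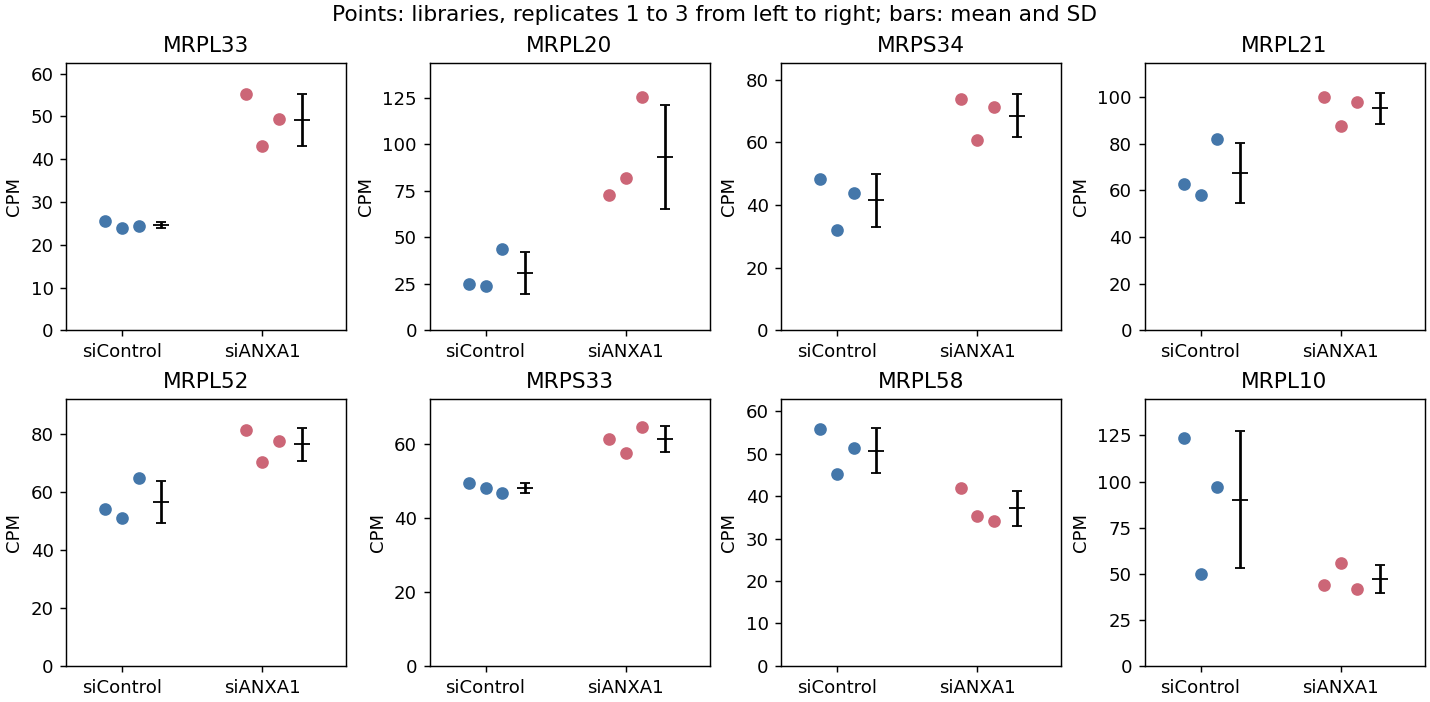
Level in CPM of 8 genes with an unadjusted p under 0.05, as a point per library with replicates 1 to 3 from left to right, beside the mean and SD of each group (n = 3). The MRPL33 points lie at 24.0 to 25.5 CPM in siControl and at 43.2 to 55.2 CPM in siANXA1, while the 3 siControl points of MRPL10 span 50.1 to 123 CPM.

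MRPL10 and MRPL58 had the lower values among genes with an unadjusted p under 0.05. MRPL10 anchors the stalk that recruits translation factors. It measured 123, 50.1 and 97.2 CPM in siControl 1 to 3 and 43.9, 55.9 and 41.5 CPM in siANXA1 1 to 3, a log2 fold change of -0.94 ± 0.34 (SE) with an adjusted p of 0.627 by edgeR. Its groups overlapped because siControl 2 lay below siANXA1 2. MRPL58, a peptidyl-tRNA hydrolase built into the large subunit that frees stalled ribosomes, measured 55.7, 45.1 and 51.4 CPM in siControl 1 to 3 and 41.9, 35.3 and 34.1 CPM in siANXA1 1 to 3. Each siANXA1 library was below each siControl library, with a log2 fold change of -0.45 ± 0.17 (SE) and an adjusted p of 0.627 by edgeR.

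The other stalk proteins were measured beside MRPL10. MRPL12, which binds elongation factors at the tip of the stalk, measured 117, 103 and 158 CPM in siControl 1 to 3 and 153, 133 and 146 CPM in siANXA1 1 to 3. MRPL11, at the stalk base, measured 69.3, 62.7 and 82.7 CPM in siControl 1 to 3 and 81.3, 81.3 and 82.6 CPM in siANXA1 1 to 3. Both overlapped between groups and had a log2 fold change of 0.19, with adjusted p of 0.793 and 0.753 by edgeR. For MRPL11 the value was -0.31 when the most abundant transcript alone was counted.

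The 3 MRPS18 paralogues descend from a single bacterial small subunit protein. MRPS18C, placed where the bacterial protein sits, measured 20.1, 37.2 and 38.0 CPM in siControl 1 to 3 and 48.8, 31.1 and 63.1 CPM in siANXA1 1 to 3, a log2 fold change of 0.59 with overlapping groups. MRPS18B, in the small subunit at another site, measured 196, 193 and 190 CPM in siControl 1 to 3 and 176, 184 and 174 CPM in siANXA1 1 to 3. Its libraries were among the tightest of the family, and its log2 fold change of -0.11 came with groups that did not overlap, although the value was 0.02 when protein coding transcripts alone were counted. MRPS18A, in the large subunit, measured 85.6, 79.3 and 80.3 CPM in siControl 1 to 3 and 85.0, 73.6 and 88.3 CPM in siANXA1 1 to 3, with a log2 fold change of 0.01. Adjusted p by edgeR was 0.685, 0.793 and 0.987 for MRPS18C, MRPS18B and MRPS18A.

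MRPS30 and MRPS36 carry small subunit names but work elsewhere. MRPS30, a large subunit protein, measured 142, 145 and 177 CPM in siControl 1 to 3 and 167, 153 and 163 CPM in siANXA1 1 to 3, with a log2 fold change of 0.05. MRPS36, of the 2-oxoglutarate dehydrogenase complex, measured 40.7, 42.1 and 43.8 CPM in siControl 1 to 3 and 63.0, 46.2 and 56.9 CPM in siANXA1 1 to 3. MRPS36 did not overlap between groups, and its log2 fold change was 0.39 with an adjusted p of 0.635 by edgeR.

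At the lower end, MRPS28 measured 11.7, 15.7 and 17.3 CPM in siControl 1 to 3 and 6.92, 12.8 and 6.85 CPM in siANXA1 1 to 3, a log2 fold change of -0.75 with an adjusted p of 0.635 by edgeR. MRPL45 had a log2 fold change of -0.44 and MRPL19 one of -0.27, both with overlapping groups. MRPL19, a bacterial-type protein of the subunit interface, measured 67.1, 73.8 and 116 CPM in siControl 1 to 3 and 93.5, 79.8 and 39.9 CPM in siANXA1 1 to 3. Its lower mean in siANXA1 thus came from siANXA1 3, and without that library the log2 fold change was 0.02.

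Among the most abundant members by TPM, MRPL14, described above, had a log2 fold change of 0.58, and the others differed less between groups. MRPL16 measured 150, 149 and 255 CPM in siControl 1 to 3 and 236, 183 and 243 CPM in siANXA1 1 to 3, and MRPL37 measured 195, 198 and 287 CPM and 214, 272 and 226 CPM. Their log2 fold changes were 0.25 and 0.07, and in both siControl 3 was the highest library. MRPS15 and MRPS24 had log2 fold changes of 0.03 and 0.11.

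A few genes varied widely between libraries of the same group. MRPL49 measured 75.9, 15.4 and 98.3 CPM in siControl 1 to 3 and 47.2, 91.7 and 65.9 CPM in siANXA1 1 to 3. Its counts jumped between transcripts: the coding ENST00000279242 held 72.7 CPM in siControl 1 and 84.5 CPM in siANXA1 2 but 0.0546 CPM in siANXA1 3. MRPS23, a mitochondria-specific small subunit protein, measured 34.0, 55.6 and 132 CPM in siControl 1 to 3 and 150, 112 and 54.8 CPM in siANXA1 1 to 3. MRPL23 measured 0.694, 3.47 and 6.86 CPM in siControl 1 to 3 and 6.67, 0 and 3.22 CPM in siANXA1 1 to 3. Groups overlapped in all 3 genes, and their log2 fold changes of 0.11, 0.51 and -0.14 had SEs of 0.64, 0.58 and 1.40. By contrast, the rarely coding MRPS16 measured 4.83, 3.65 and 5.39 CPM in siControl 1 to 3 and 5.96, 6.35 and 5.62 CPM in siANXA1 1 to 3, and MRPL53 stayed between 3.61 and 5.21 CPM. Across the 6 libraries, 20 of 78 members (25.6%) ranged over more than 2-fold. The share was 44.3% of all tested genes and 40.2% of those at 5 CPM or more. Cytosolic ribosomal protein genes and nuclear oxidative phosphorylation genes were steadier than the family, each at 14.3%.

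Shares of transcripts within members were compared in the same way. Of 115 member transcripts that averaged at least 1 CPM and between 10% and 90% of their gene, 3 (2.61%) took a larger share of the gene in every siANXA1 library, against 5.27% of all such transcripts. A smaller share was taken by 8 (6.96%), against 6.1%. The widest shift was in MRPL39, a mitochondria-specific large subunit protein, and was chosen after its values were seen. Its coding transcript ENST00000419219 measured 0, 0 and 17.6 CPM in siControl 1 to 3 and 38.8, 33.5 and 43.0 CPM in siANXA1 1 to 3, while ENST00000352957 went from a mean of 92.8% of the gene to 54%. The gene total was 61.5, 65.2 and 87.7 CPM in siControl 1 to 3 and 90.3, 73.2 and 88.1 CPM in siANXA1 1 to 3, with overlapping groups. Protein coding transcripts held between 89.5% and 91.4% of the members' counts in every library.

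The 2 RNAs on which these proteins assemble were lower in siANXA1. MT-RNR1 measured 1113, 1037 and 877 CPM in siControl 1 to 3 and 684, 667 and 665 CPM in siANXA1 1 to 3. MT-RNR2 measured 19523, 20153 and 11124 CPM in siControl 1 to 3 and 7524, 9947 and 7298 CPM in siANXA1 1 to 3. Neither overlapped between groups. The log2 fold change was -0.59 ± 0.13 (SE) for MT-RNR1 and -1.04 ± 0.26 (SE) for MT-RNR2, with adjusted p of 0.574 and 0.605 by edgeR. DESeq2 called MT-RNR1 alone, with an adjusted p of 0.033. The labels name total RNA as the molecule and no depletion step, and how a depletion or selection step would act on these RNAs was not tested.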

How the data were processed

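For each transcript the authors deposited an estimated count, whole-numbered and without normalization. Which aligner, counter and strand option made it is not given in the sources used here. Per the submitters' processing notes the genome was the mouse build mm10, but the 206601 rows with a gene were all found in GENCODE release 29 on human GRCh38. Rows without a gene (16.9% to 17.7% of counts) were left out.

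Counts were summed per gene and 17947 of them tested with the quasi-likelihood test of edgeR 4.0.16 (R 4.3.3) after filterByExpr and TMM, with a robust fit, two-sided, with Benjamini-Hochberg adjustment and a threshold of 0.05. Fold changes are siANXA1 over siControl. TPM was computed from the deposited transcript lengths, and log2 CPM for medians used a prior count of 2. Permutation tests were exact, on log2(CPM + 0.5). On data simulated for siANXA1 against siControl with 17417 genes there were 11 false calls. The members and gene lists were chosen with earlier results of these data known. Named genes were those with an unadjusted p under 0.05, the 5 highest and 5 lowest fold changes at 5 CPM or more, the extremes of level and of range in each subunit, and genes of known special role.

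Alternatives were other scalings, DESeq2 1.42.0, limma-voom (limma 3.58.1), other filters, coding or most abundant transcripts, a replicate block, the side of principal component 1 as covariate, and each library left out. MRPL20 without 1 transcript was added after seeing the data. Sequences are from RefSeq, GRCh38.p14. Figures were drawn with matplotlib 3.10.9.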

Additional observations from a re-analysis of the deposited data

How the results depend on the processing

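With 3 libraries per group and the spread seen here, calls for single genes depended on the tool. The number of mitochondrial ribosomal protein genes past the threshold was 0 in every alternative run other than DESeq2, which called 2: MRPL33 (log2 fold change 1.0) and MRPL20 (1.6). The number of other mitochondrial translation genes past the threshold was likewise 0, and 1 with DESeq2. ANXA1, outside the threshold in edgeR (adjusted p 0.057), passed it with DESeq2 (-1.15, adjusted p 1.41e-17), limma-voom (-1.15, adjusted p 0.0206), the strict filter (-1.17, adjusted p 0.0435), the side of principal component 1 as covariate (-1.14, adjusted p 0.0201) and without siControl 3 (adjusted p 0.0487 by edgeR), with a range of -1.16 to -1.11 over the libraries left out. The large subunit median ranged from 0.08 without siControl 2 to 0.37 without siControl 3, and the small subunit median from 0.09 without siControl 2 to 0.28 without siANXA1 2. The large minus small difference ranged from -0.06 to -0.01 with a library left out and was -0.13 with the most abundant transcript per gene. With the replicate block 0 members were called, the medians were 0.20 and 0.18, and the adjusted p of ANXA1 was 0.335 by edgeR. The block changed no call. Deviations of same-numbered libraries correlated at -0.11, 0.26 and 0.26, so the numbers were not taken as pairs, and siControl 1 correlated best with siANXA1 2 (0.23). Upper quartile scaling moved the median of all genes to -0.05 and the subunit medians to 0.13 and 0.12.

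Genes with values near 0 changed sign. MRPS15 was -0.0264 with upper quartile scaling, -0.000237 with the strict filter and -0.00976 with the side as covariate. MRPS18A was -0.0498 with upper quartile scaling, -0.0112 without a filter, -0.0225 with the strict filter, -0.0370 with the most abundant transcript and -0.0272 with the side as covariate. MRPS18B was 0.0205 with coding transcripts and 0.0147 with the most abundant transcript. MRPS30 was -0.0171 with coding transcripts, -0.0246 with the most abundant transcript and -0.00814 with the side as covariate, and MRPL11 was -0.31 with the most abundant transcript. With a library left out, values ranged from -0.0400 to 0.27 for MRPL37, from -0.0395 to 0.12 for MRPS15, from -0.00969 to 0.15 for MRPS30, from -0.36 to 0.57 for MRPL49, from -0.0155 to 0.85 for MRPS12, from -0.0421 to 0.0883 for MRPS18A, from -0.52 to 0.02 for MRPL19 and from -1.16 to 0.68 for MRPL23. The cause was not tested. MRPL33 stayed between 0.91 and 1.09 and MRPL20 between 1.33 and 1.94 in the same refits. MRPL20 did not pass the filter with the most abundant transcript per gene, and the large minus small difference was not run with other tools or designs.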

Other observations

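Genes that serve the mitochondrial ribosome without bearing its name were measured in the same libraries. The lists hold 5 subunits with other names, 18 translation factors, 27 assembly factors, 16 genes of mitochondrial transcription and its regulators, and 13 mitochondrial messages, of which 10 were tested. With the 2 rRNAs, 0 of 78 tested genes passed edgeR's threshold, against 0.0111% of all genes. At an unadjusted p under 0.05, 2 translation factors and 1 assembly factor were higher, against 3.4% of all genes, and 1 translation factor, 2 rRNAs and 2 messages were lower, against 4.52%. DESeq2 called 1, MT-RNR1, against 1.67% of all genes. Pooled over the lists, the counts lie near these shares. The lower ones were unevenly spread, with 2 of 2 rRNAs and 2 of 10 tested messages against 1 of 18 translation factors.

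Subunits with other names had a median log2 fold change of 0.22, with 4 of 5 above 0. PTCD3, a pentatricopeptide protein of the small subunit, measured 142, 143 and 234 CPM in siControl 1 to 3 and 219, 160 and 225 CPM in siANXA1 1 to 3, and so stood high in the libraries of side B. DAP3, a GTP-binding protein of the small subunit, measured 145, 131 and 142 CPM in siControl 1 to 3 and 138, 93.4 and 143 CPM in siANXA1 1 to 3, lowest in siANXA1 2.

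Assembly factors had a median of 0.18, with 18 of 27 above 0, and a profile over the libraries close to that of the large subunit: median deviations of -0.24, -0.30 and 0.29 in siControl 1 to 3 and 0.19, -0.07 and 0.18 in siANXA1 1 to 3. C1QBP, a matrix protein that takes part in ribosome biogenesis, measured 279, 216 and 345 CPM in siControl 1 to 3 and 450, 309 and 399 CPM in siANXA1 1 to 3. DHX30, an RNA helicase, measured 168, 143 and 264 CPM in siControl 1 to 3 and 232, 200 and 253 CPM in siANXA1 1 to 3. Both overlapped between groups.

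Genes of mitochondrial transcription had median deviations of -0.31, -0.31 and 0.34 in siControl 1 to 3 and 0.11, -0.18 and 0.31 in siANXA1 1 to 3, with a median log2 fold change of 0.19. SSBP1, which binds single-stranded mitochondrial DNA, measured 181, 190 and 249 CPM in siControl 1 to 3 and 281, 227 and 274 CPM in siANXA1 1 to 3. Translation factors had a median of 0.09, with 13 of 18 above 0. TUFM, the elongation factor that delivers tRNAs, measured 605, 577 and 659 CPM in siControl 1 to 3 and 611, 564 and 620 CPM in siANXA1 1 to 3. LRPPRC, which stabilizes mitochondrial messages, measured 594, 635 and 768 CPM in siControl 1 to 3 and 709, 570 and 739 CPM in siANXA1 1 to 3. Neither separated the groups.

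Mitochondrial messages had a median log2 fold change of -0.14, with 3 of 10 above 0. Their values jumped in places: MT-ND4 measured 43.8 CPM in siANXA1 2 and was among the most abundant messages elsewhere, and MT-CO3 measured 1058 CPM in siControl 1 and between 0.092 and 0.183 CPM elsewhere. Pseudogenes of the family were low, with 6 of 75 passing the filter and the highest, MRPL45P2, at 4.93 CPM.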
